A study of Mus musculus with 7 samples.

Results

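The NRF2 antioxidant response genes are a set of 10 transcripts, taken by name from a count table of 25655 genes: Nfe2l2, Keap1, Hmox1, Nqo1, Gclc, Gclm, Slc7a11, Gpx4, Txnrd1 and Srxn1. All 10 have a row in the table and all 10 passed the filter on low counts, as did 14750 genes in all. They were measured by poly(A) RNA sequencing of whole retinas of wildtype C57BL/6 mice, 2 days after a crush of the optic nerve, which severs or damages the axons through which ganglion cells reach the brain. The Tppp3 AAV2 retinas had received an adeno-associated viral vector for overexpression of Tppp3, a protein that promotes tubulin polymerization. The control AAV2 retinas had received a control vector, named with CMV in the protocol, while the sources used here give neither the promoter of the Tppp3 vector nor the age of the mice. Every retina analysed was injured and carried a vector, so the comparison bears on the Tppp3 construct and not on the injury. It rests on 3 Tppp3 AAV2 and 3 control AAV2 libraries, in a study that, by its title, concerns Tppp3 as a gene for regrowth of the optic nerve.

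NRF2, encoded by Nfe2l2, is a transcription factor that is held in the cytoplasm and sent for degradation by KEAP1. Oxidants and electrophiles modify cysteines of KEAP1, after which NRF2 accumulates, pairs with small MAF proteins in the nucleus and binds antioxidant response elements near its target genes. The targets supply cystine and glutathione, reduce peroxides and thioredoxin, and detoxify quinones and heme. In the retina this system is known for protecting neurons and glia from the oxidants that light, high oxygen use and axon injury produce. Because much of the control of NRF2 acts on the stability of the protein, the levels of target transcripts are a common readout of it.

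The antioxidant response element has a core that reads TGAGNNNGC or TGACNNNGC. RefSeq promoter windows (build GRCm38.p6, whereas the counts were made on GRCm39) were found for 8 of the 10 members, in 13 windows, and not for Hmox1 and Gclc. In the 250 bases before the gene start, on either strand, 1 or both forms of the core stood in 5 of the 13 windows, and in 23% of 32851 windows of all genes. The 5 windows belong to Srxn1, Slc7a11, Nfe2l2, Gclm and Txnrd1. Another motif, TGATGCAA, which is part of the element bound by ATF4, the transcription factor of the amino acid and stress response, stood in 0.791% of all windows, and among the members only in that of Slc7a11. The stretches of Srxn1 and Slc7a11 are shown because they hold more of these matches than the other member windows, and because Slc7a11 had the largest log2 fold change in size of the 10 members. Capitals mark the matches on either strand, and both stretches end at the base before the gene start. That of Srxn1 lies on the plus strand at chr2:152105346-152105523 and that of Slc7a11 on the minus strand at chr3:50443614-50443730.
Srxn1: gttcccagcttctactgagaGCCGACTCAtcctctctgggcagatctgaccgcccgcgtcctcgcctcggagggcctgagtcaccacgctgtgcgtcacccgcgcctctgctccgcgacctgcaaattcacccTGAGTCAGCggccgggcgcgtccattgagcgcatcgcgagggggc
Slc7a11: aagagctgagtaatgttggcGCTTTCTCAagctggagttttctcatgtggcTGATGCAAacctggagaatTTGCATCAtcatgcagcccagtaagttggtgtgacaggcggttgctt
Both matches of Srxn1 are the core of the antioxidant response element, as TGAGTCGGC on the opposite strand and TGAGTCAGC on the same strand, 158 and 45 bases before the start. Slc7a11 holds TGAGAAAGC on the opposite strand, 97 bases before the start, followed by a pair of TGATGCAA in opposite orientations, 66 and 47 bases before it. A match describes the letters and is not evidence of binding.

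Library totals were 19961359 to 21843892 counts in the Tppp3 AAV2 libraries and 10961443 to 16218074 in the control AAV2 libraries. Depth therefore separates the groups completely, with the controls shallower. Tppp3 itself stood at 53.7, 36.5 and 41.8 CPM (counts scaled to a common library size after TMM) in the Tppp3 AAV2 libraries, against 18.7, 22.2 and 28.0 CPM in the controls. The groups did not overlap for it, though edgeR's adjusted p was 0.639, and DESeq2's was 1.22e-05. The tissue label was checked with 8 rod genes, whose CPM summed to 46840 to 55940 in the Tppp3 AAV2 libraries and 53530 to 60570 in the controls. The libraries differed in pigment epithelium RNA, which was high in Tppp3 replicates 1 and 3 and control replicate 1. Its 10 tested markers all had positive log2 fold changes, with a median of 0.80, and edgeR called none of them. The 12 markers of that list summed to 566, 377 and 610 CPM in Tppp3 replicates 1, 2 and 3 and to 587, 326 and 341 CPM in control replicates 1, 2 and 3, with 11 of the 12 above 0 in every library and Slc45a2 at 0 in control replicate 3. Its visual cycle gene Rpe65 stood at 14.2, 2.12 and 17.0 CPM with Tppp3 AAV2 and at 19.45, 1.23 and 1.36 CPM in the controls. Most of each sum of that list was Rlbp1, also listed as a Müller glia marker. Rlbp1 stood at 337, 318 and 393 CPM with Tppp3 AAV2 and at 372, 279 and 293 CPM in the controls, so the sums differ less than Rpe65. The 12 microglia and macrophage markers, all above 0 in every library, summed to 111 to 234.5 CPM with Tppp3 AAV2 and 121 to 222 CPM in the controls. RNA of Y-linked genes was high in Tppp3 replicate 2 and control replicate 1, at 224 and 235 CPM, and at 2.13 CPM or less in the other 4 libraries. In whole retina, fewer cells of a type and less RNA per cell cannot be told apart.

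Per kb of exon length, Gpx4 was the most abundant of the 10 transcripts and Slc7a11 the least. Gpx4, the peroxidase that reduces lipid peroxides in membranes, averaged 132 ± 3.01 CPM per kb over the 6 libraries (SD). Srxn1, which encodes sulfiredoxin, came next at 42.5 ± 3.45 CPM per kb. Keap1, at 14.5 ± 0.748 CPM per kb, and Gclc, the catalytic subunit of glutamate-cysteine ligase, at 13.8 ± 0.688, overlapped between libraries. So did Txnrd1, the cytosolic thioredoxin reductase, at 8.88 ± 0.365 and Nfe2l2 at 7.59 ± 0.963 CPM per kb. Gclm, the modifier subunit of the ligase, followed at 5.84 ± 0.264 and Hmox1, the inducible heme oxygenase, at 4.06 ± 0.463 CPM per kb, each apart from its neighbours in the order. Nqo1, the quinone reductase, had 1.32 ± 0.493 CPM per kb, a range that overlapped that of Slc7a11 at 0.786 ± 0.228 CPM per kb. The lengths are the exons of all annotated transcripts joined, 13922 bases for Slc7a11, so a gene with long and rarely used exons is placed too low.

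**Figure D1:**
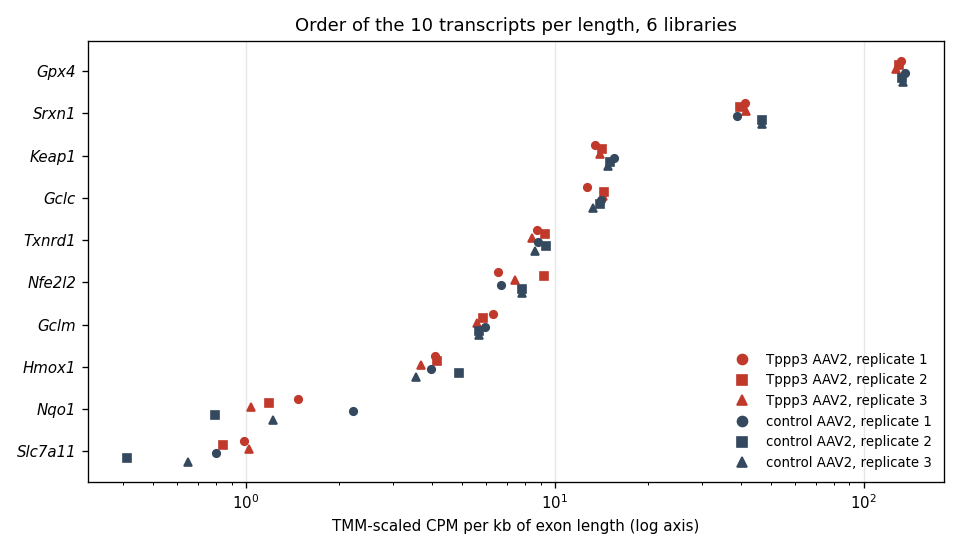
Levels of the 10 transcripts per kb of exon length on a log axis, 1 point per library (red, Tppp3 AAV2; dark, control AAV2; the shape gives the replicate). Gpx4 lies near 132 CPM per kb and Slc7a11 and Nqo1 near 1, and Slc7a11 is the member whose red points all lie to the right of its dark points.

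No member of the set passed edgeR's quasi-likelihood test at an adjusted p under 0.05 over all genes, and the same held with DESeq2's Wald test and limma's voom. In edgeR 0.0136% of the 14750 tested genes were called. At an unadjusted p under 0.05, 2 of the 10 members were found, Slc7a11 on the higher side and Keap1 on the lower side, where 7.23% of all tested genes were found. Slc7a11 stayed under that value in 13 of the 15 alternatives, with p from 0.00162 to 0.052, whereas Keap1 did so in only 4 of the 15. The groups did not overlap for 3 members, Slc7a11 as higher and Keap1 and Gpx4 as lower, against 13.9% of all tested genes (6.92% of all tested genes as higher and 7.02% as lower). With counts this small, neither share can be read as setting the 10 genes apart. The median log2 fold change of the members was -0.036, with 3 positive and 7 negative values, and that of all tested genes was 0.0029. Apart from Slc7a11, the members lay between -0.17 and 0.057, and 80.6% of all tested genes lay within 0.2 of 0. A two-sided exact permutation test per member cannot go below p = 0.1 with 3 against 3 libraries. It gave that value for 3 of the 10 members, Slc7a11, Keap1 and Gpx4, and 0.4 or more for the others.

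Slc7a11 encodes xCT, the light chain of the transporter that imports cystine in exchange for glutamate and so feeds glutathione synthesis. It had 13.7, 11.8 and 14.2 CPM in Tppp3 AAV2 replicates 1, 2 and 3, against 11.1, 5.72 and 9.04 CPM in control AAV2 replicates 1, 2 and 3. Each Tppp3 library was above each control library, with control replicate 1 close to Tppp3 replicate 2, and the controls spread more widely. Group means were 13.2 ± 1.30 and 8.63 ± 2.73 CPM (SD, n = 3 each), from raw counts of 270, 261 and 300 with Tppp3 AAV2 and 126, 93 and 100 in the shallower controls. The log2 fold change was 0.63 ± 0.22 (SE), a 1.55-fold higher fitted level with a 95% interval of 1.10 to 2.18-fold. In edgeR's test the unadjusted p was 0.017 and the adjusted p 0.648, so the difference did not pass. Of all tested genes, 2.77% had a log2 fold change at least as large in size.

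The size of this difference depended on single libraries. It was 0.39 without control replicate 2, the lowest library, and 0.86 without control replicate 1, the highest control, and it was positive under all 15 alternatives, with edgeR, DESeq2 or voom adjusted p from 0.408 to 0.907. The 3 libraries rich in pigment epithelium RNA had 13.7 and 14.2 CPM of Slc7a11 with Tppp3 AAV2 and 11.1 CPM in the control, and the 3 poor in it had 11.8 CPM with Tppp3 AAV2 and 5.72 and 9.04 CPM in the controls. Within each group Slc7a11 was higher in the libraries rich in that RNA. Since the groups do not overlap, no split of the libraries could place the controls higher, and the part of that RNA in the difference was not tested. With the level of the pigment epithelium list as a covariate the log2 fold change was 0.42 (edgeR adjusted p = 0.639), and with sex as a covariate it was 0.65 (edgeR adjusted p = 0.738).

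The transcripts of the partner chain of xCT and of Chac1 differed little. Slc3a2, which encodes the heavy chain that carries xCT to the cell surface, had 158.8, 140.4 and 147.5 CPM in the Tppp3 AAV2 libraries and 139.5, 139.8 and 144.0 CPM in the controls. Its log2 fold change was 0.077 ± 0.055 (SE; edgeR adjusted p = 0.802). Chac1, a glutathione-degrading enzyme and ATF4 target, stood at 11.9, 10.7 and 13.5 CPM with Tppp3 AAV2 and at 11.49, 10.9 and 12.3 CPM in the controls, with overlapping groups. Its log2 fold change was 0.060 ± 0.12 (SE; edgeR adjusted p = 0.946), and -0.055 after thinning all libraries to equal depth. Both genes, and Gsr, Bach1, Nfe2l1, Txn1, Prdx6, Ftl1 and Fth1 wherever they appear, were picked for their role with values already seen, except that Txn1 also met the rule for named genes.

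**Figure D2:**
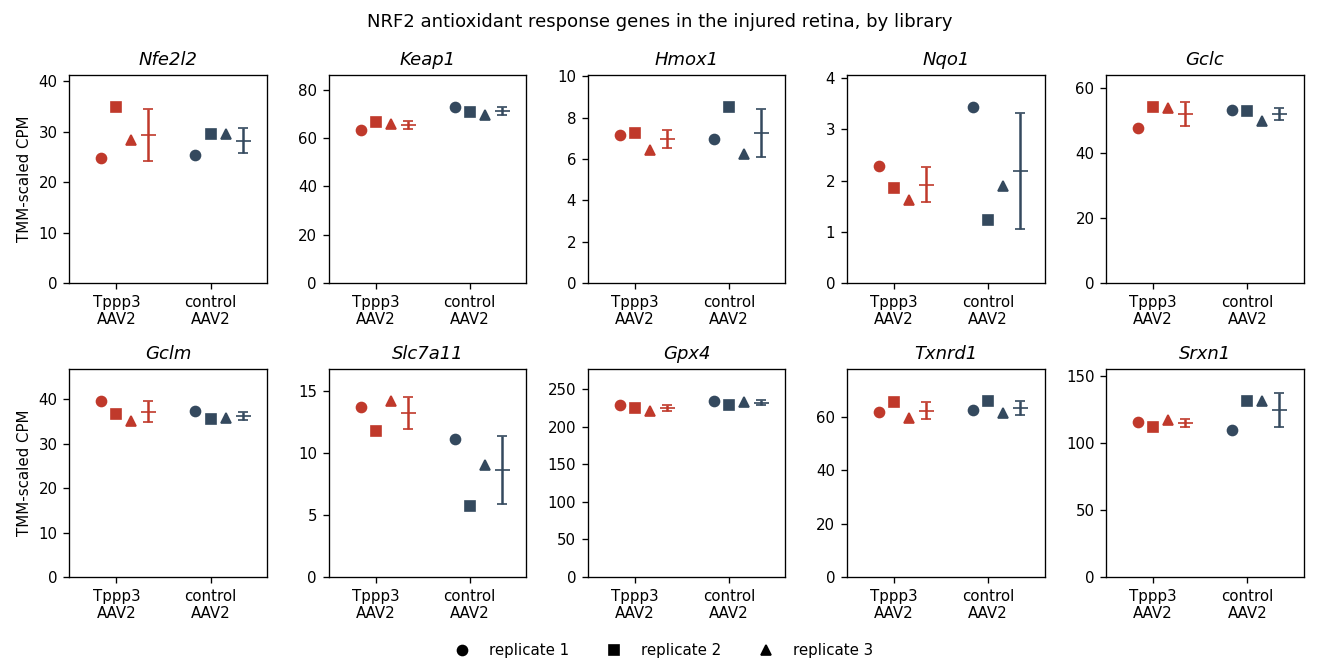
TMM-scaled CPM of each member by library, with the mean and SD of each group at the right of its points (n = 3 each, axes start at 0). Slc7a11 is separate by 13.2 against 8.63 CPM, Keap1 and Gpx4 are separate by a small margin, and the other 7 genes overlap between Tppp3 AAV2 and control AAV2.

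The sensor and the transcription factor of the pathway showed small differences in transcript level. Keap1 had 63.5, 66.8 and 65.9 CPM in the Tppp3 AAV2 libraries, against 73.0, 70.7 and 69.6 CPM in the controls. The lowest control lay above the highest Tppp3 library, and the group means were 65.4 ± 1.72 and 71.1 ± 1.74 CPM (SD, n = 3 each). The log2 fold change was -0.12 ± 0.055 (SE), with an unadjusted p of 0.0495 and an adjusted p of 0.688 in edgeR's test, and it stayed between -0.15 and -0.11 under the 15 alternatives. The unadjusted p of Keap1 was above 0.05 in 11 of them, among them DESeq2's Wald test (0.122) and all 6 fits with a library left out. Nfe2l2 had 24.8, 35.0 and 28.3 CPM with Tppp3 AAV2 and 25.5, 29.6 and 29.6 CPM in the controls. Its groups overlapped and the Tppp3 group held both the highest and the lowest library, so the log2 fold change of 0.057 ± 0.12 (SE; edgeR adjusted p = 0.950) turned to -0.089 without Tppp3 replicate 2 and to -0.015 without control replicate 1. Tppp3 replicate 2, the highest in Nfe2l2, was also the highest in the microglia and macrophage list, 0.53 above the mean of the libraries in log2 CPM. It was the highest in the means of the Müller glia and astrocyte list (0.19) and the endothelial and mural list (0.12) as well. The genes of the endothelial and mural list were not uniform in this. Tppp3 replicate 2 was the highest library for Kdr, Pdgfrb and Rgs5, but not for Pecam1, Cldn5, Cdh5, Flt1 or Kcnj8. Tppp3 replicate 3 and control replicate 1 stood at -0.53 and -0.49 in the microglia and macrophage list and at -0.017 and -0.17 in Nfe2l2. Tppp3 replicate 1, the lowest in Nfe2l2 at -0.20, stood at -0.25 in that list. Control replicates 2 and 3 stood at 0.39 and 0.345 in the list and at 0.049 and 0.050 in Nfe2l2. The part of any of these cells in the Nfe2l2 level was not tested. With the pigment epithelium covariate the Nfe2l2 value was 0.21 (edgeR adjusted p = 0.671).

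The subunits of the enzyme that limits glutathione synthesis had fitted ratios close to 1. Gclc had 47.7, 54.2 and 53.8 CPM in the Tppp3 AAV2 libraries, against 53.3, 52.9 and 49.9 CPM in the controls. The fitted ratio was 0.997, with a 95% interval of 0.898 to 1.11 (log2 fold change -0.0038 ± 0.069, SE; edgeR adjusted p = 0.993). Gclm had 39.7, 36.7 and 35.1 CPM with Tppp3 AAV2 and 37.3, 35.7 and 35.9 CPM in the controls, a ratio of 1.02 with an interval of 0.919 to 1.14 (edgeR adjusted p = 0.945). The sign of both differences changed with the library left out, and the groups overlapped for both genes.

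The peroxide-reducing members included the transcript with the least spread, Gpx4. Gpx4 had 228, 225 and 220 CPM in the Tppp3 AAV2 libraries, against 235, 229 and 232 CPM in the controls. The groups did not overlap, yet the ratio was 0.967 with a 95% interval of 0.904 to 1.03, and edgeR's adjusted p was 0.849. Its coefficient of variation was 1.76% within the Tppp3 group and 1.17% within the controls, the smallest of the 10 genes. Txnrd1 had 61.9, 65.8 and 59.6 CPM with Tppp3 AAV2 and 62.7, 66.2 and 61.4 CPM in the controls, a ratio of 0.984 with an interval of 0.895 to 1.08 (edgeR adjusted p = 0.961). Srxn1, which repairs overoxidized peroxiredoxins, had 116, 112 and 117 CPM with Tppp3 AAV2 and 110, 132 and 132 CPM in the controls. Control replicate 1 was the lowest of all libraries for Srxn1 and the other 2 controls were the highest, so the groups overlapped, with a log2 fold change of -0.11 ± 0.069 (SE; edgeR adjusted p = 0.769). Without control replicate 1 the Srxn1 value was -0.20 (unadjusted p = 0.0043, adjusted p = 0.499 in edgeR), without control replicate 2 it was -0.070, without control replicate 3 -0.073, and with the pigment epithelium covariate -0.039.

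Among the detoxifying enzymes, often used as inducible readouts of NRF2, Nqo1 had the widest interval of the 10 members. Hmox1 had 7.16, 7.26 and 6.46 CPM in the Tppp3 AAV2 libraries, against 6.98, 8.54 and 6.24 CPM in the controls, from raw counts of 136 to 161 with Tppp3 AAV2 and 69 to 139 in the controls. All Tppp3 libraries lay within the range of the controls, and the ratio was 0.955 with a 95% interval of 0.747 to 1.22 (edgeR adjusted p = 0.955). Nqo1 had 2.29, 1.85 and 1.61 CPM with Tppp3 AAV2 and 3.45, 1.23 and 1.90 CPM in the controls, from 34 to 45 counts with Tppp3 AAV2 and 20 to 39 in the controls. Control replicates 1 and 2 were the highest and the lowest of all libraries for Nqo1, and the log2 fold change of -0.17 has a 95% interval of -1.001 to 0.658 (edgeR adjusted p = 0.950). Nqo1 is thus poorly determined at this depth and spread. The value was 0.31 without control replicate 1, -0.48 without control replicate 2 and -0.46 with the pigment epithelium covariate.

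Across libraries, the members did not share a common shift. The median deviation of the 10 genes from their own means was -0.011, 0.019 and -0.050 in log2 CPM in Tppp3 replicates 1, 2 and 3, and 0.031, 0.038 and -0.034 in control replicates 1, 2 and 3. Nqo1 ranged from -0.62 in control replicate 2 to 0.78 in control replicate 1 and Slc7a11 from -0.86 in control replicate 2 to 0.44 in Tppp3 replicate 3. Both were lowest in control replicate 2, in which Hmox1 was highest, at 0.27.

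**Figure D3:**
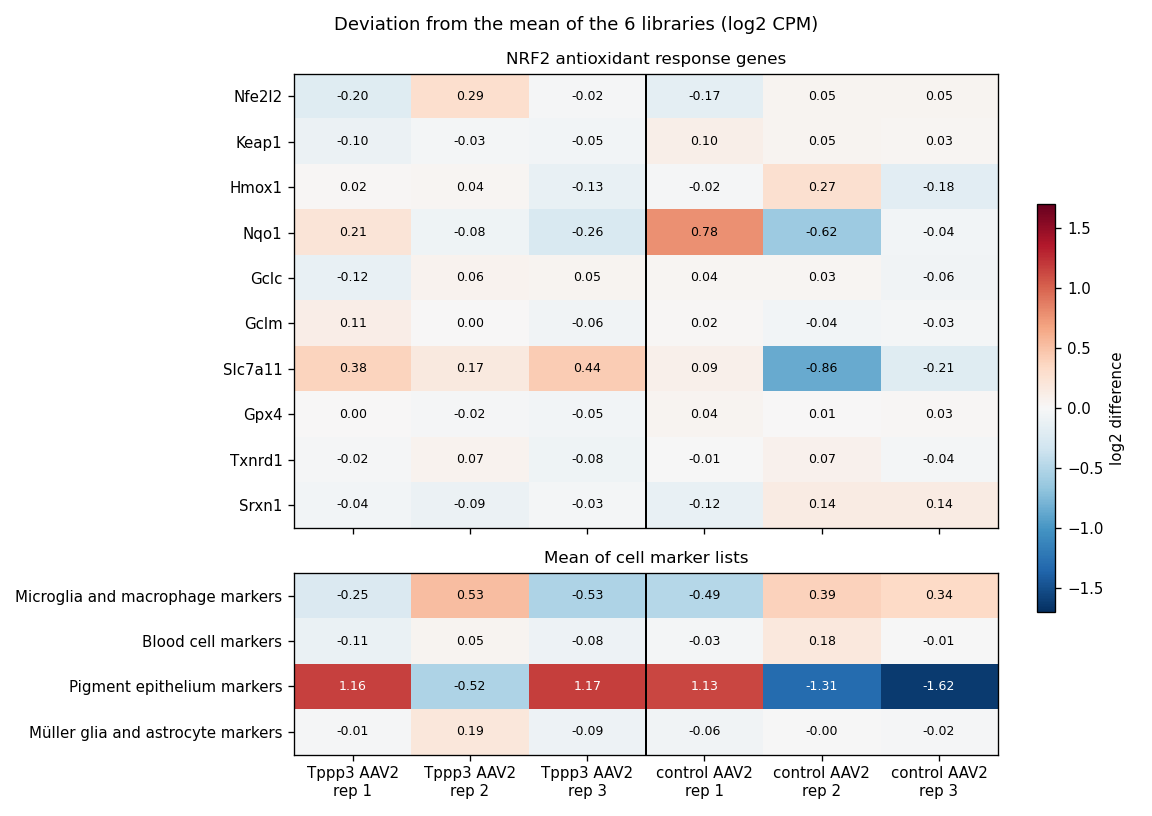
Deviation of each member, and of the mean of 4 cell marker lists, from the mean of the 6 libraries in log2 CPM, with Tppp3 AAV2 libraries left of the line and controls right of it. Slc7a11 and Nqo1 vary most among the members, Gpx4, Txnrd1 and Gclm hardly vary, and the pigment epithelium list is high in Tppp3 replicates 1 and 3 and in control replicate 1.

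Other genes of NRF2 control were examined as a list of 12 partners and regulators. None passed edgeR's test in either direction. At an unadjusted p under 0.05 in that test, 7.23% of all tested genes were found, and 1 of these 12. So small a count does not set the list apart. That gene was Bach2, a repressor that competes for related DNA elements, with 11.48, 9.20 and 9.35 CPM in the Tppp3 AAV2 libraries and 8.40, 8.05 and 7.77 CPM in the controls. Its groups did not overlap, with a log2 fold change of 0.31 ± 0.14 (SE) and an edgeR adjusted p of 0.684. Cul3, the scaffold of the ubiquitin ligase that KEAP1 serves, stood at 0.097 ± 0.050 (SE; edgeR adjusted p = 0.730). Bach1, the repressor of Hmox1, had 33.6, 39.6 and 41.6 CPM with Tppp3 AAV2 and 37.8, 40.0 and 37.5 CPM in the controls, a log2 fold change of -0.0073, and Nfe2l1, which encodes a relative of NRF2, stood at 0.039. The median of the list was 0.0077.

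The 19 further NRF2 targets, of which 18 were tested and Gsta1 was too low, had log2 fold changes from -0.71 to 0.36, 10 positive and 8 negative, with a median of 0.012. None passed edgeR's test in either direction. The value of -0.71 was that of Aldh3a1, with 0.864, 0.857 and 0.95 CPM with Tppp3 AAV2 and 0.972, 1.35 and 2.08 CPM in the controls. Its groups did not overlap, from 11 to 23 counts a library (unadjusted p = 0.0855, adjusted p = 0.739 in edgeR). Gsta4, a glutathione transferase that clears products of lipid peroxidation, had 21.5, 23.2 and 19.9 CPM in the Tppp3 AAV2 libraries, against 19.5, 16.8 and 16.3 CPM in the controls. The groups did not overlap for it, and the log2 fold change was 0.30 ± 0.10 (SE; unadjusted p = 0.0145, adjusted p = 0.648 in edgeR). Mgst1, a membrane-bound glutathione transferase, had 15.2, 16.7 and 14.6 CPM with Tppp3 AAV2 and 10.9, 9.96 and 15.7 CPM in the controls, with overlap through control replicate 3 and a log2 fold change of 0.36 (edgeR adjusted p = 0.688). The ferritin chains Ftl1 and Fth1, which store the iron that heme oxygenase releases, stood at 0.012 and -0.062, and their counts may share reads with near-identical pseudogenes.

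Enzymes that use and regenerate glutathione and thioredoxin were likewise not called in either direction. For the 20 glutathione genes the median log2 fold change was -0.0079, and its 2 members of smallest p were Ggct at -0.24 (edgeR adjusted p = 0.767) and Gss, glutathione synthetase, at -0.15 (edgeR adjusted p = 0.802). Gsr, glutathione reductase, stood at -0.11 (edgeR adjusted p = 0.824). The list of 16 thioredoxin, peroxiredoxin and superoxide genes had a median of -0.0090, with 5 positive and 11 negative values. Prdx5, a peroxiredoxin, had 91.8, 87.9 and 87.0 CPM in the Tppp3 AAV2 libraries, against 93.35, 95.9 and 96.4 CPM in the controls, without overlap, and its log2 fold change was -0.10 (edgeR adjusted p = 0.728). Txn1, thioredoxin, stood at -0.15 (edgeR adjusted p = 0.766) and Prdx6 at 0.11 (edgeR adjusted p = 0.929).

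Cytosolic NADPH provides the reducing power for glutathione and thioredoxin, and the median log2 fold change over its 6 supply genes was -0.022. Pgd, of the pentose phosphate pathway, stood at -0.12 (edgeR adjusted p = 0.759) and Me1, malic enzyme, at -0.031 (edgeR adjusted p = 0.939). Among 11 genes linked to ferroptosis, the iron-dependent death by lipid peroxidation that GPX4 prevents, 9 were tested and the median was 0.028, while Alox12 and Alox15 were too low. Ptgs2, which encodes cyclooxygenase and is often read as a marker of ferroptosis, had 3.51, 3.43 and 3.85 CPM with Tppp3 AAV2 and 5.04, 4.55 and 6.51 CPM in the controls, without overlap. Its log2 fold change was -0.57 ± 0.20 (SE; unadjusted p = 0.0174, adjusted p = 0.648 in edgeR). Acsl4, which loads membranes with oxidizable lipids, stood at 0.13 (edgeR adjusted p = 0.758). Over these 6 lists no gene passed in edgeR, DESeq2 or voom. In edgeR 3 genes had an unadjusted p under 0.05, Bach2 and Gsta4 as higher and Ptgs2 as lower. These were 1 of 12 tested partners, 1 of 18 further targets and 1 of 9 ferroptosis genes. None was found among the 20 glutathione, 16 thioredoxin and 6 NADPH genes. Of all tested genes 3.67% were found higher and 3.55% lower, so these few genes do not set the lists apart. The groups did not overlap as higher for 1 of 12 partners, 2 of 18 further targets and 1 of 16 thioredoxin genes. As lower they did not overlap for 1 further target, 1 thioredoxin gene and 1 of 9 ferroptosis genes. Of all tested genes this held for 6.92% as higher and 7.02% as lower, and these counts do not set the lists apart either.

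**Figure D4:**
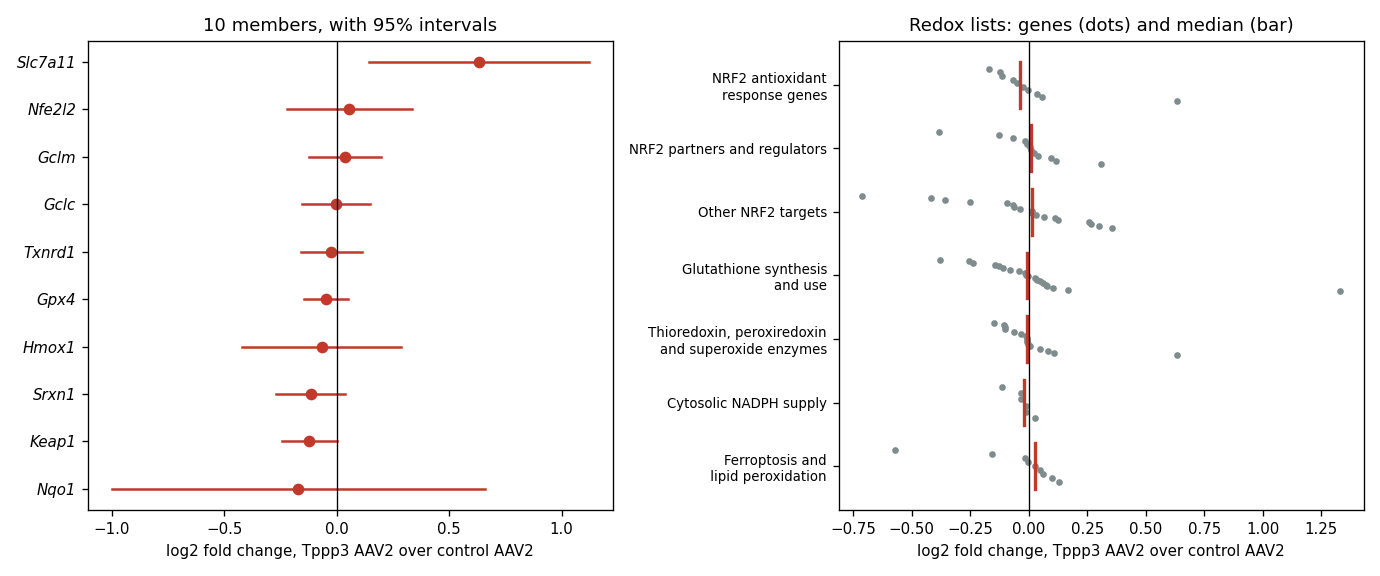
Left, log2 fold change (Tppp3 AAV2 over control AAV2) of the 10 members with 95% intervals; right, log2 fold changes of the tested genes of each redox list (dots) with the list median (bar). The intervals of Slc7a11 and, by a narrow margin, Keap1 leave out 0, and the list medians lie between -0.036 and 0.028.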

How the data were processed

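Values in the deposited table, given for each gene symbol, are named total counts in the column headers and were taken as raw and unnormalized. Libraries were poly(A)-selected and sequenced as paired reads of 150 bases without marking of strand, per the labels' protocols. The submitters' processing notes name GRCm39 (mm39). The sources used here give no aligner, counter or annotation, and it is unknown how reads shared by overlapping genes were assigned. The labels name 3 Tppp3 and 4 control samples, whereas the protocol gives 4 and 3. Sample labels were followed, and 6 columns matched a title. Control sample 4 is not analysed here. The table's columns, like the protocol, number 4 Tppp3 and 3 control, and the column named as the fourth Tppp3 library matched none of the sample labels and was left aside (1 column), so fits meant for 7 libraries used 6. Each sample title carries a different number that it does not explain, and whether each library is another animal is not stated. The p-values set the group difference against the spread between these samples.

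Genes were filtered with filterByExpr, scaled by TMM and tested with edgeR 4.0.16 (R 4.3.3, quasi-likelihood F test, robust, two-sided, Benjamini-Hochberg over 14750 genes, threshold 0.05). Standard errors and 95% intervals came from the F statistic. Permutation tests used log2 CPM with a prior count of 2. Alternatives used DESeq2 1.42.0, limma 3.58.1, other scaling and filters, covariates, a replicate block, thinning, and each library left out. The procedure was tested on simulated data, but its recovery of differences as small as those of the members is not given here. Exon lengths came from GENCODE M21 (GRCm38), promoters from RefSeq. Plots used matplotlib 3.10.9. Named besides the members were the 2 genes of smallest p in each redox list, and Aldh3a1, picked for its value, as the lower end of a range. Members and lists were chosen with earlier results of these data known.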

Additional observations from a re-analysis of the deposited data

How the results depend on the processing

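No member and no gene of the redox lists crossed the threshold under any of the 15 alternatives. Slc7a11 stayed positive and Keap1, Gpx4 and Srxn1 negative in all of them. Some signs changed, none of them of a gene past the threshold. After thinning to equal depth the log2 fold change was 0.043 for Hmox1, 0.0055 for Gclc, -0.032 for Gclm, -0.016 for Ftl1 and -0.055 for Chac1, and the ferroptosis median was 0.064. With voom it was 0.062 for Nqo1. With the pigment epithelium covariate it was 0.0068 for Txnrd1, 0.047 for Me1 and 0.018 for Bach1, and the thioredoxin list's median was 0.020. With single libraries left out, the log2 fold change ranged from -0.089 to 0.16 for Nfe2l2, -0.16 to 0.075 for Hmox1, -0.48 to 0.31 for Nqo1, -0.036 to 0.048 for Gclc, -0.018 to 0.075 for Gclm, -0.063 to 0.0098 for Txnrd1, -0.072 to 0.072 for Bach1, -0.035 to 0.036 for Ftl1, -0.032 to 0.14 for Chac1 and -0.080 to 0.23 for Prdx6. The medians ranged from -0.076 to 0.0094 for the NRF2 antioxidant response genes, -0.020 to 0.015 for the partners and regulators, -0.056 to 0.0023 for the thioredoxin list and -0.016 to 0.040 for the ferroptosis list. They ranged from -0.0255 to 0.034 for the further NRF2 targets, -0.034 to 0.034 for the glutathione list and -0.044 to 0.014 for the NADPH list. The difference of mean log2 CPM behind the exact permutation tests ranged from -0.087 to 0.16 for Nfe2l2, -0.15 to 0.074 for Hmox1, -0.41 to 0.29 for Nqo1, -0.038 to 0.054 for Gclc, -0.014 to 0.074 for Gclm and -0.061 to 0.0099 for Txnrd1. The cause of these changes was not tested. Over all genes, edgeR called 0 as higher and 2 as lower, DESeq2's Wald test 2 and 12 (Tppp3 among them, adjusted p = 1.22e-05), edgeR with no filter 0 and 6, and the other alternatives 0 to 2 in each direction.

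With the replicate block, the log2 fold change of Slc7a11 was 0.66 (edgeR unadjusted p = 0.00226, adjusted p = 0.675) and that of Keap1 -0.12 (edgeR unadjusted p = 0.0722, adjusted p = 0.727), with 1 gene of all tested called in place of 2. Same-numbered libraries did not deviate together (correlations of -0.029, 0.051 and -0.26). With 3 libraries a group these values cannot exclude a pairing, and the labels do not say what the replicate number marks. Few counts limit Nqo1 and Hmox1, and 3 libraries a group limit every member.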

Other observations

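Gpx3 and Sod3, enzymes that work outside the cell, were picked here after their values were seen. Their log2 fold changes had SEs of 1.09 and 0.57, against 0.38 for Nqo1, the largest of the members. Gpx3, the secreted glutathione peroxidase, had 79.7, 44.2 and 50.4 CPM in Tppp3 AAV2 replicates 1, 2 and 3, against 59.2, 6.64 and 4.70 CPM in control AAV2 replicates 1, 2 and 3. Control replicate 1 lay among the Tppp3 libraries and the other 2 controls far below them, so the groups overlapped, with a log2 fold change of 1.33 ± 1.09 (SE; edgeR adjusted p = 0.845). The value was 3.33 without control replicate 1 (edgeR adjusted p = 0.444), 0.86 without control replicate 2 and 0.86 without control replicate 3. It was 0.95 with the pigment epithelium covariate (edgeR adjusted p = 0.767), 2.03 with sex as a covariate, 2.01 with the replicate block and 2.52 with voom. Control replicates 2 and 3 were also the 2 libraries lowest in the pigment epithelium list, Tppp3 replicate 2 was the next lowest in that list, and it had the least Gpx3 of the Tppp3 libraries. The part of pigment epithelium RNA in the Gpx3 level was not tested.

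Sod3, the extracellular superoxide dismutase, had 7.52, 4.56 and 6.74 CPM with Tppp3 AAV2 and 7.60, 1.598 and 3.16 CPM in the controls. Like Gpx3 it was lowest in control replicates 2 and 3, but it was highest in control replicate 1, where Gpx3 was not. Its log2 fold change was 0.64 (edgeR adjusted p = 0.857), 1.43 without control replicate 1 and 0.22 without control replicate 2. It was 0.15 with the pigment epithelium covariate (edgeR adjusted p = 0.916), 0.78 with sex as a covariate, 0.80 with the replicate block and 1.15 with voom.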
